A study of Mus musculus with 15 samples.

Results

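CC chemokines are small secreted proteins that draw leukocytes out of the blood, and 7 of their genes were followed here: Ccl2, Ccl7, Ccl12, Ccl11, Ccl3, Ccl4 and Ccl5. The members were the lines of the deposited read count table whose numeric gene ID belongs to 1 of these mouse symbols (Gene IDs 20296, 20306, 20293, 20292, 20302, 20303 and 20304), 7 of 17892 genes with values. RNA was sequenced from brain cells of mice that had been isolated for PDGFRβ, a receptor of pericytes, vascular smooth muscle cells and fibroblasts. The 4 groups were 4 libraries of microRNA-210 knockout (KO) mice after hypoxia-ischemia (HI), 4 of KO mice after a sham procedure, 4 of wild-type (WT) mice after HI and 3 of WT mice after sham. HI was a neonatal brain injury, and the cells were collected 24 h after it. The labels give neither the age in days, the sex or the strain of the mice nor the cells in which the knockout acts. They do not say whether the replicates of a group are separate animals, so the p-values below measure the spread between these libraries, which may be technical.

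CC chemokines are named for a pair of adjacent cysteines near the start of the mature protein. They bind G protein-coupled receptors on leukocytes: Ccl2, Ccl7 and Ccl12 act mainly through Ccr2, which monocytes carry, Ccl11 through Ccr3 of eosinophils, and Ccl3 and Ccl5 bind Ccr1. In injured brain, microglia, macrophages, astrocytes, endothelial cells and mural cells are all known sources, and NF-κB is a main activator of these genes. Ackr1 and Ackr2 are decoy receptors that bind CC chemokines without classical signalling.

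The stretch of coding sequence around the adjacent cysteine codons is what unites the 7 transcripts, and it is shown for each of them from the GENCODE M21 transcripts of GRCm38, with both cysteine codons in capitals and 18 coding bases on either side.
Ccl2: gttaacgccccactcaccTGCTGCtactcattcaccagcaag
Ccl7: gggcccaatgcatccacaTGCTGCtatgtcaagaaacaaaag
Ccl12: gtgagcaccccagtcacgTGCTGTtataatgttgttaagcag
Ccl11: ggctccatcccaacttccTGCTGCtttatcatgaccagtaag
Ccl3: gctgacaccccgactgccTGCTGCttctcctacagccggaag
Ccl4: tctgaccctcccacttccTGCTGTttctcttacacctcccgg
Ccl5: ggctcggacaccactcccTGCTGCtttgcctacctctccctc

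The pair of cysteine codons began at codon 32 in Ccl11, at codon 33 in Ccl7, Ccl12 and Ccl5 and at codon 34 in Ccl2, Ccl3 and Ccl4, counted from the start codon. Ccl12 and Ccl4 spelled the second cysteine with TGT and the other 5 with TGC. Coding sequences were 70.0% identical between Ccl3 and Ccl4, the most alike pair, and 52.6% between Ccl7 and Ccl5, the least alike. All 105 values of the members, 7 genes in 15 libraries, were whole numbers in the table, so no fractional assignment of shared reads was seen in them. All 7 genes lie on chromosome 11. In the gene order of RefSeq on GRCm38.p6, Ccl2, Ccl7, Ccl11 and Ccl12 follow each other, with Ccl8 and Ccl1 next in line, and a further run of neighbours holds Ccl5, Ccl9, Ccl6, Ccl3 and Ccl4. The RefSeq spans of Ccl3 and Ccl4, which lie on opposite strands, overlap, as do those of Ccl5 and a long non-coding RNA. The sources used here do not say whether reads were counted by strand, so reads from these overlaps cannot be told apart.

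MicroRNA-210 is induced by hypoxia and lowers the output of transcripts that pair with its seed, and its mature sequence from RefSeq is shown because its loss defines the KO mice. The seed, bases 2 to 8, is in capitals, and the sequence lies at chr7:141221407-141221428 on the minus strand of GRCm38.p6.
miR-210-3p: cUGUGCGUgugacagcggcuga
The DNA letters that pair with this seed, ACGCACA, were searched on the sense strand of the transcripts. None of the 7 chemokine transcripts held them, in the 3′ untranslated region or elsewhere, while 3.04% of 20852 genes with an annotated 3′ untranslated region did. Among 9686 genes whose 3′ untranslated region is 100 to 1000 bases long, as all 7 are, the share was 0.95%. The host line Mir210 was blank in all 15 libraries, so the loss of the targeted gene could not be checked.

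AUUUA, written ATTTA in DNA, is the core of AU-rich elements, which are known to speed the decay of cytokine transcripts. The 3′ untranslated regions of Ccl12, Ccl11 and Ccl3 each held 5 copies, those of Ccl7 and Ccl4 held 2, that of Ccl2 held 1 and that of Ccl5 held 0, on the sense strand with overlaps counted. At least 3 copies were found in 9.87% of the genes with a 3′ untranslated region of 100 to 1000 bases. The RefSeq promoter table had an entry for Ccl12 and for Ccl3. The promoter of Ccl12, the member that was higher in KO than in WT libraries after HI, is shown from 250 bases before to 50 bases after its start, chr11:82101595-82101894 on the plus strand of GRCm38.p6, with a TATA box in capitals.
Ccl12 promoter: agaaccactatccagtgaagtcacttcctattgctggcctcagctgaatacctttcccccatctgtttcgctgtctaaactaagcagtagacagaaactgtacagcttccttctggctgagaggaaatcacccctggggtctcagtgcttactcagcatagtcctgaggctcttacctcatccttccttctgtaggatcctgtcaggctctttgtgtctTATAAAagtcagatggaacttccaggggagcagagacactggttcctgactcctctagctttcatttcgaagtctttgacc
TATAAA lies 31 to 26 bases before the start of Ccl12 and was present in 13.6% of all 32851 promoters searched. The other motifs searched on both strands had no match in the 2 windows: the κB motif, present in 4.51% of promoters, the AP-1 site TGANTCA in 7.81% and the hypoxia response core ACGTG in 19.6%. The Ccl3 window held none of the motifs.

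Total counts lay between 15436376 and 18118697 per library. Levels are in CPM, reads per 10 to the power of 6 after TMM scaling, and log2 fold changes with their standard error come from 1 edgeR quasi-likelihood fit of the 4 groups over 14853 genes. A call means that the p adjusted by Benjamini and Hochberg over all genes tested was under 0.05, and all 7 members passed the filter on low counts. Pdgfrb, the gene used to isolate the cells, averaged 357 ± 174 CPM in KO HI libraries, 516 ± 219 in KO sham, 925 ± 125 in WT HI and 861 ± 155 in WT sham libraries (SD, n = 4, 4, 4 and 3). Microglia markers were present in every library, at a summed 2096 CPM or more, and neuron markers were high in 5 libraries, KO HI 2 and 3, KO sham 1 and 3 and WT sham 2, at a summed 91.6 to 861 CPM against 23.4 to 67.3 in the other 10. Choroid plexus markers varied more widely, at a summed 52210 CPM in KO HI 2 and 35.2 to 26260 CPM in the other libraries. Oligodendrocyte lineage markers summed to 8456 CPM in KO sham 1, against 281 to 1770 CPM in the other libraries. In bulk samples, fewer cells of a type and less RNA per cell cannot be told apart.

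After HI, chemokine transcripts were higher than after sham in both genotypes. In KO libraries 6 of 7 members rose, all but Ccl7, against 4.88% of all genes called higher. In WT libraries Ccl2, Ccl11, Ccl4 and Ccl5 rose, 4 of 7, against 1.38% of all genes. The libraries of HI and sham did not overlap for 6 of 7 members in KO, against 6.06% of genes higher without overlap, and for the same 6 of 7 in WT, against 15.9%. The median log2 fold change of the members was 2.79 in KO and 2.38 in WT, and that of all genes -0.06 and -0.01. The KO libraries of the HI comparison are also those of the genotype comparison, so these results are not independent of each other.

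**Figure D1:**
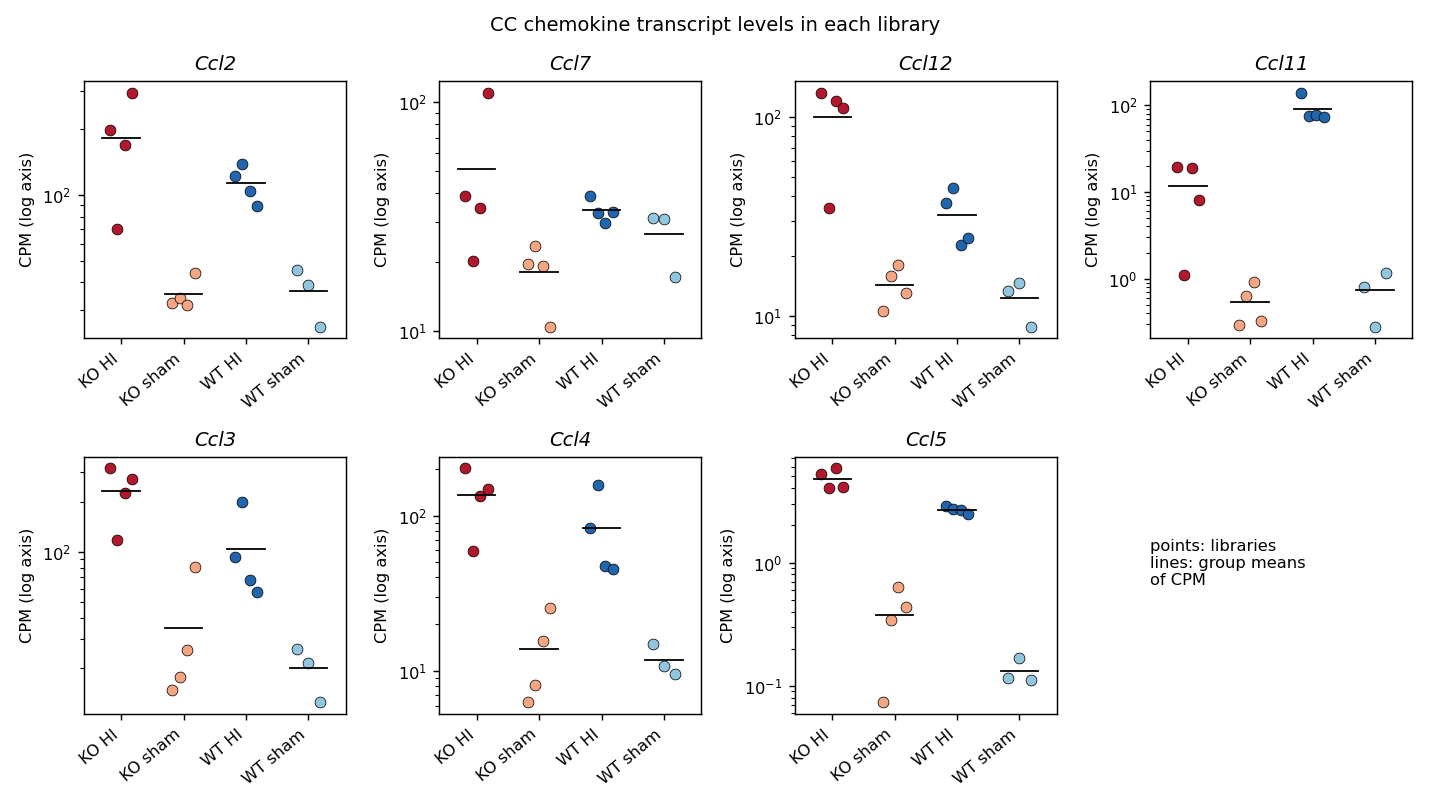
Level of each CC chemokine in the 15 libraries, in CPM on a log axis. Points are libraries, lines are group means, and for every member but Ccl7 the HI libraries of a genotype sit above all its sham libraries.

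Ccl2, the main ligand of Ccr2, had 198, 70.5, 171 and 294 CPM in KO HI libraries 1 to 4, against 32.1, 34.1, 31.4 and 44.1 CPM in KO sham libraries 1, 3, 4 and 6. In WT it had 123, 138, 104 and 89.0 CPM in HI libraries 1, 2, 4 and 5, against 45.8, 38.9 and 25.1 CPM in sham libraries 1 to 3. All 8 HI libraries lay above all 7 sham libraries, and KO HI 2 was the lowest of the 8. Ccl2 rose by 2.37 ± 0.35 log2 units in KO (edgeR adjusted p = 0.00348), a 5.17-fold change, and by 1.64 ± 0.37 in WT (edgeR adjusted p = 0.0445), a 3.11-fold change. The WT call was near the threshold: it held in 3 of the 15 fits that each left out 1 library, and leaving out a WT sham library gave adjusted p = 0.124 to 0.207 in edgeR.

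Ccl12, a rodent relative of Ccl2 that also binds Ccr2, had 132, 34.9, 120 and 112 CPM in KO HI libraries, against 10.6, 15.9, 18.1 and 13.1 CPM in KO sham libraries. In WT it had 37.2, 44.0, 22.7 and 24.7 CPM in HI libraries and 13.4, 14.6 and 8.85 CPM in sham libraries. HI and sham libraries were apart in both genotypes, and 3 of the 4 KO HI libraries stood well above every other library. The log2 fold change was 2.79 ± 0.38 in KO (edgeR adjusted p = 0.00209), and in WT it was 1.38 ± 0.40 and missed the threshold (edgeR adjusted p = 0.107). In WT, Ccl12 was called with DESeq2 (adjusted p = 0.0130), in the edgeR fit of the 2 WT groups alone (0.0173), and in edgeR without KO HI 2 (0.0184) or without the 5 libraries with high neuron markers (0.0313).

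Ccl7, a further monocyte attractant and the immediate neighbour of Ccl2 in gene order, was the member without a call. It had 38.7, 20.3, 34.5 and 109.9 CPM in KO HI libraries, against 19.5, 23.5, 19.2 and 10.4 CPM in KO sham libraries. In WT it had 38.8, 32.8, 29.7 and 33.1 CPM in HI libraries and 31.2, 31.0 and 17.2 CPM in sham libraries. HI and sham overlapped in both genotypes, and KO HI 4 was far above the other 14 libraries. The log2 fold change was 1.49 ± 0.43 in KO (edgeR adjusted p = 0.0565) and 0.35 ± 0.46 in WT (edgeR adjusted p = 0.858), where the 95% interval ran from -0.65 to 1.34. KO HI 4 and KO HI 2 pulled the KO value in opposite directions: it was 0.75 without KO HI 4, and 1.75 and called without KO HI 2 (edgeR adjusted p = 0.0156). Ccl7 was also called in KO with DESeq2 (adjusted p = 0.00828) and in edgeR without the 5 libraries with high neuron markers (adjusted p = 0.0188).

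Ccl11, eotaxin, the attractant of eosinophils, was low after sham and had the highest fold change of the 7 in both genotypes. Its counts were 341, 19, 314 and 143 in KO HI libraries, against 4, 11, 16 and 6 in KO sham libraries. In WT the counts were 2441, 1331, 1368 and 1282 in HI libraries, against 14, 5 and 21 in sham libraries. Every WT HI library was above every KO HI library, and the HI libraries of each genotype lay above its own sham libraries, though KO HI 2 only barely. In CPM these were 19.3, 1.09, 19.0 and 7.99 in KO HI, 0.29, 0.62, 0.93 and 0.33 in KO sham, 139.5, 75.9, 77.1 and 72.6 in WT HI, and 0.80, 0.28 and 1.16 in WT sham. Ccl11 rose by 4.41 ± 0.76 log2 units in KO (edgeR adjusted p = 0.00677), a 21.3-fold change with a 95% interval of 6.80 to 66.6, and by 6.92 ± 0.92 in WT (edgeR adjusted p = 0.00276), a 121-fold change with an interval of 30.4 to 481. The KO call was lost with limma-voom (adjusted p = 0.151), and the WT call held in every alternative fit run, with a value of 6.64 without WT HI 1 (edgeR adjusted p = 0.00836).

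Ccl3 and Ccl4, the macrophage inflammatory proteins, are chemokines that microglia and macrophages are known to make. Ccl3 had 317, 117, 224 and 273 CPM in KO HI libraries, against 14.8, 17.6, 25.7 and 80.7 CPM in KO sham libraries. In WT it had 92.4, 198, 67.4 and 57.1 CPM in HI libraries and 26.0, 21.4 and 12.4 CPM in sham libraries. KO sham 6 was the high library of its group, above 2 of the WT HI libraries, and WT HI 2 was the high library of WT HI. Ccl3 rose by 2.74 ± 0.58 log2 units in KO (edgeR adjusted p = 0.0161), with a value of 3.59 without KO sham 6 (edgeR adjusted p = 0.00460). Without KO HI 1 the value was 2.56 and missed the threshold (edgeR adjusted p = 0.0515). In WT its log2 fold change of 2.38 ± 0.64 was not called (edgeR adjusted p = 0.0835). It was called there by DESeq2 (adjusted p = 0.00210), in the edgeR fit of the 2 WT groups alone (0.0180), and in edgeR without KO sham 1 (0.0486) or KO sham 6 (0.0295).

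Ccl4 followed Ccl3 from library to library. It had 201, 59.1, 134 and 149 CPM in KO HI libraries, against 6.29, 8.16, 15.6 and 25.3 CPM in KO sham libraries. In WT it had 82.6, 157, 47.2 and 45.0 CPM in HI libraries and 14.9, 10.7 and 9.57 CPM in sham libraries. The 8 HI libraries lay above the 7 sham libraries, and WT HI 2 was again the highest of WT. Ccl4 rose by 3.29 ± 0.54 log2 units in KO (edgeR adjusted p = 0.00579) and by 2.82 ± 0.60 in WT (edgeR adjusted p = 0.0299). The WT call was lost without WT HI 1 (edgeR adjusted p = 0.0707) or WT HI 2 (0.0591) and without any 1 of the WT sham libraries (0.124 to 0.163).

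Ccl5, RANTES, which attracts T cells and monocytes, was low after sham and moved with little spread after HI. Its counts were 93, 70, 96 and 73 in KO HI libraries, against 1, 6, 11 and 8 in KO sham libraries. In WT the counts were 50, 48, 47 and 44 in HI libraries, against 2, 3 and 2 in sham libraries. The HI libraries of both genotypes were far above the sham libraries, and the KO HI libraries were all above the WT HI libraries. Ccl5 rose by 3.64 ± 0.41 log2 units in KO (edgeR adjusted p = 7.37e-04), a 12.5-fold change, and by 4.28 ± 0.50 in WT (edgeR adjusted p = 0.00133), a 19.5-fold change. Of the 8 marker genes of T and NK cells 1, Cd4, passed the filter on low counts. Their summed level was 1.77 to 9.17 CPM in all libraries, most of it Cd4 at 1.43 to 8.55 CPM. The highest value of any other gene on the list was 0.484 CPM, of Gzmb in KO HI 3.

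**Figure D2:**
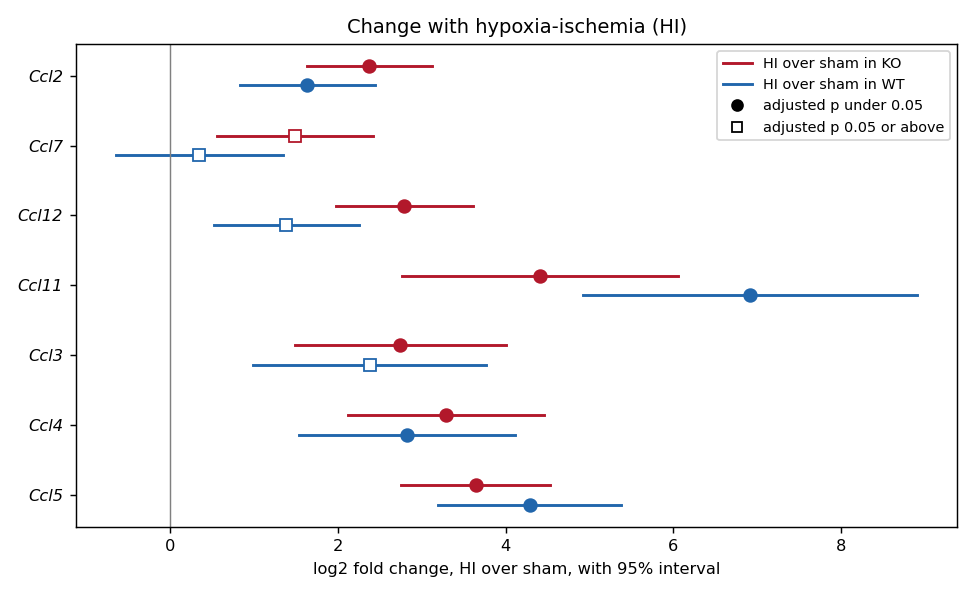
Log2 fold change of each member after HI over sham, in KO and in WT libraries, with its 95% interval from edgeR. Filled circles mark adjusted p under 0.05; all 7 values are above 0 in both genotypes, and Ccl11 has the largest, 4.41 in KO and 6.92 in WT.

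When the 2 KO groups were fitted on their own, the 6 KO values stayed between 2.33 and 4.38 log2 units, but none was called (edgeR adjusted p = 0.0523 to 0.118). That fit called 16 of 14384 genes. Of 12 microglia markers 3 were called higher after HI in KO, C1qa, C1qb and Fcrls, and in WT 0 were higher and 2 lower, P2ry12 and Siglech, against 0.444% of all genes called lower there. Their summed level was 6903 to 14890 CPM in KO HI, against 3790 to 6656 in KO sham, and 2096 to 5503 in WT HI, against 2822 to 4033 in WT sham. WT HI 2, the WT library with the highest Ccl3 and Ccl4, also had the highest microglia sum of WT, and the same held for KO HI 1 in KO. Within the sham groups it did not hold. KO sham 6 had the highest Ccl3 and Ccl4 of KO sham and KO sham 4 the highest microglia sum (6656 CPM, against 6418). WT sham 1 had the highest Ccl3 and Ccl4 of WT sham and WT sham 2 the highest microglia sum (4033 CPM, against 3868). Of 8 neutrophil markers, 7 tested, S100a8 and S100a9 were called higher in KO and none in WT. Of 6 monocyte markers, Ccr2 was called higher in KO and none in WT. None of the genes on these lists was at 0 in all libraries. The part of these markers in the chemokine values was not tested.

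Among other CC ligands the pattern split. Of 11 tested, Ccl6 and Ccl9, which lie between Ccl5 and Ccl3 in gene order, rose and none fell in either genotype. Ccl6 rose by 2.63 ± 0.46 in KO (edgeR adjusted p = 0.00688) and 2.37 ± 0.51 in WT (edgeR adjusted p = 0.0330), and Ccl9 by 2.64 ± 0.44 in KO (edgeR adjusted p = 0.00600) and 2.17 ± 0.49 in WT (edgeR adjusted p = 0.0404). Ccl8, named here after its values were seen because it is the next gene after Ccl12, had 4.65 ± 2.70 CPM in KO HI and 4.31 ± 2.69 in KO sham (SD, n = 4 each), and 2.85 ± 1.06 CPM in WT HI and 2.82 ± 0.79 in WT sham (SD, n = 4 and 3). Its log2 fold change was 0.11 ± 0.53 in KO and 0.02 ± 0.58 in WT. The median over the 11 was 0.11 in KO and -0.11 in WT.

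Of 10 CC receptors tested, 3 rose and 1 fell in KO, against 2.13% of all genes called lower, and 1 rose in WT. The decoy receptor Ackr1, which venular endothelium carries, had 77.0, 70.6, 84.5 and 70.5 CPM in KO HI libraries, against 12.3, 15.9, 18.2 and 13.2 in KO sham libraries. In WT it had 220, 185, 177 and 198 CPM in HI libraries and 15.8, 20.2 and 17.6 in sham libraries. The HI libraries of both genotypes were far above all sham libraries, and those of WT were above those of KO. Ackr1 rose by 2.34 ± 0.14 log2 units in KO (edgeR adjusted p = 2.00e-06) and 3.45 ± 0.16 in WT (edgeR adjusted p = 1.77e-07). Ccr2, the receptor of Ccl2, Ccl7 and Ccl12, had a mean of 5.90 ± 4.06 CPM in KO HI and 0.97 ± 0.34 in KO sham and rose there by 2.60 ± 0.57 (edgeR adjusted p = 0.0174). In WT, Ccr2 had 4.23 ± 2.88 CPM in HI and 0.88 ± 0.13 in sham, and its log2 value of 2.25 ± 0.62 was not called (edgeR adjusted p = 0.0907). Ccr1 rose in KO by 1.20 ± 0.34 (edgeR adjusted p = 0.0480) and Ackr4, a scavenging receptor, fell in KO by 1.32 ± 0.36 (edgeR adjusted p = 0.0427). Ccr3, the receptor of Ccl11, was too low to test, at 0.16 to 0.78 CPM over the 15 libraries.

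Of 15 NF-κB regulators, all tested, the kinase gene Ikbke rose in KO by 1.57 ± 0.22 (edgeR adjusted p = 0.00282) and in WT by 1.04 ± 0.24 (edgeR adjusted p = 0.0499). Bcl3, a nuclear IκB-like cofactor, rose in WT by 1.81 ± 0.40 (edgeR adjusted p = 0.0362) and had 1.16 ± 0.35 in KO (edgeR adjusted p = 0.0670). The median of the list was 0.53 in KO and 0.64 in WT.

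Between the sham groups no member differed by the test. The calls over all genes were 0.00673% higher and 0.00673% lower in KO, 1 gene in each direction, and none of the 7 members was among them. KO and WT sham libraries overlapped for every member, while 4.63% of all genes were higher and 5.49% lower in KO sham without overlap. The largest log2 difference was that of Ccl5, 1.48 ± 0.50 (edgeR adjusted p = 0.477), and rested on 1 to 11 counts a library in KO sham and 2 to 3 in WT sham. Ccl7 had -0.54 ± 0.46, Ccl11 -0.44 ± 0.87 and Ccl3 0.80 ± 0.61 log2 units, and without KO sham 6 the Ccl3 value was -0.04. Ccl2, Ccl12 and Ccl4 had -0.05 ± 0.36, 0.23 ± 0.39 and 0.24 ± 0.55 log2 units, with 95% intervals that reached 0.57 to 1.65, 0.65 to 2.1 and 0.52 to 2.68 as folds of KO over WT.

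After HI, 2 of the 7 members were called between KO and WT libraries, in opposite directions. Ccl12 was higher in KO, against 5.96% of all genes called higher, and Ccl11 was lower, against 6.46% called lower. With 1 of 7 in each direction, these counts do not set the members apart from all genes. Ccl12 averaged 99.8 ± 44.1 CPM in KO HI and 32.1 ± 10.2 CPM in WT HI libraries (SD, n = 4 each). Its log2 difference was 1.64 ± 0.36 (edgeR adjusted p = 0.0147), a 3.11-fold difference with a 95% interval of 1.81 to 5.33. Of the 4 KO HI libraries 3 were above all WT HI libraries, and KO HI 2 lay within their range. Without WT HI 4 or WT HI 5 the Ccl12 difference was 1.499 or 1.52 and missed the threshold (edgeR adjusted p = 0.0555 and 0.0586).

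Ccl11 averaged 11.8 ± 8.88 CPM in KO HI and 91.3 ± 32.2 CPM in WT HI libraries (SD, n = 4 each). The log2 difference was -2.95 ± 0.65 (edgeR adjusted p = 0.0145), which puts KO at 0.13 of the WT level with a 95% interval of 0.0491 to 0.343. The groups did not overlap, and 11.5% of all genes were lower in KO HI without overlap. WT HI 1 was the highest library by far: without it the difference was -2.67 and missed the threshold (edgeR adjusted p = 0.0534).

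Ccl5 was the other member whose HI groups did not overlap, against 9.89% of genes higher in KO HI without overlap. It had 5.26, 4.03, 5.81 and 4.08 CPM in KO HI libraries, against 2.86, 2.74, 2.65 and 2.49 CPM in WT HI libraries. Its log2 difference of 0.84 ± 0.36 was not called in the fit of all groups (edgeR adjusted p = 0.138). DESeq2 called it (adjusted p = 0.00610), as did limma-voom (0.0337), the edgeR fit of the HI groups alone (0.0342), and edgeR without KO sham 1 (0.0201) or without the 5 libraries with high neuron markers (0.0392). Ccl3, Ccl4, Ccl2 and Ccl7 had log2 differences of 1.17 ± 0.55, 0.71 ± 0.50, 0.69 ± 0.33 and 0.60 ± 0.42, with edgeR adjusted p between 0.169 and 0.339. Ccl2 was called without KO HI 2 (difference 0.96, edgeR adjusted p = 0.0232). It was also called when the 5 neuron-rich libraries were left out (difference 1.09, edgeR adjusted p = 0.0202). Of KO HI that fit kept libraries 1 and 4, the 2 with the most Ccl2, at 198 and 294 CPM. The Ccl7 value was -0.13 without KO HI 4.

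**Figure D3:**
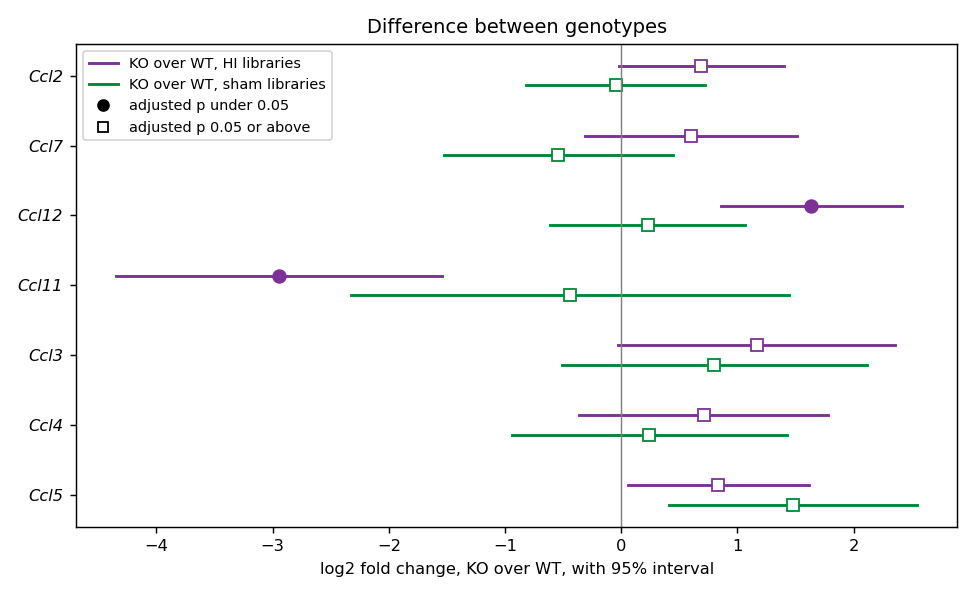
Log2 fold change of each member in KO over WT libraries, after HI and after sham, with its 95% interval from edgeR. After HI the called members are Ccl12 at 1.64 and Ccl11 at -2.95 (filled circles); no sham value is called.

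Cell type markers differed between the same libraries. After HI, 12 of 12 microglia markers were higher in KO, with a median log2 difference of 1.68, and their summed level was 6903 to 14890 CPM in KO HI and 2096 to 5503 CPM in WT HI. Of 7 markers of border macrophages, which line vessels and meninges, 4 were higher, at 482 to 1335 CPM in KO HI and 287 to 369 CPM in WT HI. In the other direction, 4 of 10 pericyte markers were lower in KO, at 1687 to 5684 CPM in KO HI and 5895 to 8240 CPM in WT HI. Endothelial markers were lower in 5 of 8, at 2221 to 4476 CPM in KO HI and 6860 to 9037 CPM in WT HI. Of 7 fibroblast markers none was called, and the median difference was -1.01, at 895 to 3852 CPM in KO HI and 2713 to 5084 CPM in WT HI. Between the sham groups none of these markers was called, but the median differences had the same signs. They were 0.68 for microglia, 0.235 for border macrophages, -0.875 for pericytes, -0.49 for endothelial cells and -0.96 for fibroblasts. Other lists shifted after HI as well. Their medians were 4.24 for oligodendrocyte lineage, 2.69 for neuron, 1.91 for choroid plexus and 1.54 for astrocyte markers, with none called higher. Medians were -0.975 for smooth muscle (Acta2 called lower), -0.24 for monocyte (Fn1 called lower) and 0.723 for neutrophil markers (Csf3r called higher). Astrocyte sums were 594 to 3844 CPM in KO HI and 682 to 988 CPM in WT HI. The part of these shifts in the Ccl12 and Ccl11 differences was not tested. Fibroblast sums were 1822, 1133, 895 and 3852 CPM in KO HI libraries 1 to 4. Ccl11 had 19.3, 1.09, 19.0 and 7.99 CPM in these libraries. In WT HI libraries 1, 2, 4 and 5 the fibroblast sums were 3797, 2713, 5084 and 4976 CPM. Ccl11 had 139.5, 75.9, 77.1 and 72.6 CPM there.

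**Figure D4:**
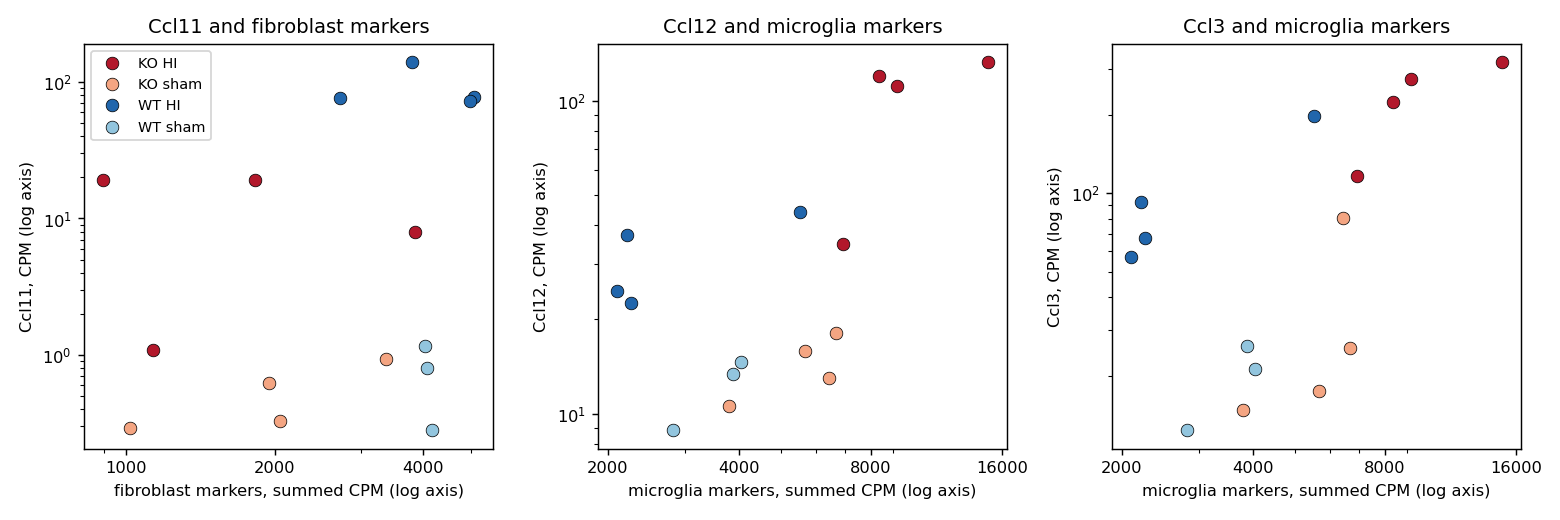
Ccl11 against the summed level of 7 fibroblast markers, and Ccl12 and Ccl3 against that of 12 microglia markers, in CPM on log axes, with 1 point for each of the 15 libraries. The 4 WT HI libraries have the highest Ccl11, at fibroblast sums of 2713 to 5084 CPM, on both sides of those of the WT sham libraries, 4043 to 4175 CPM. The KO HI libraries have 1.09 to 19.3 CPM of Ccl11 at fibroblast sums of 895 to 3852 CPM.

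Among the receptors after HI, Ackr1 was lower in KO by a log2 difference of -1.37 ± 0.13 (edgeR adjusted p = 7.18e-04). Of the other CC ligands Ccl24, a second eotaxin, was higher in KO, with 12.7 ± 4.95 CPM in KO HI and 5.75 ± 0.79 CPM in WT HI, a log2 difference of 1.14 ± 0.29 (edgeR adjusted p = 0.0231). Ccl24 and Ccl11 thus differed in opposite directions after HI. Unlike Ccl11, Ccl24 was not called for HI over sham, at 0.12 ± 0.28 in KO and -0.60 ± 0.30 in WT (edgeR adjusted p = 0.859 and 0.451). Its difference between the sham groups was 0.42 ± 0.31 (edgeR adjusted p = 0.518). Of 5 eosinophil markers 2 were tested, and Siglecf was higher in KO by 2.20 ± 0.42 (edgeR adjusted p = 0.00855). Siglecf averaged 8.31 CPM in KO HI, 8.23 in KO sham, 1.8 in WT HI and 4.08 in WT sham. Epx was not called (1.91 ± 1.33, edgeR adjusted p = 0.332). Ccr3, Prg2 and Il5ra were too low to test, with means of 0.10 to 0.49 CPM in KO HI and 0.13 to 0.48 in WT HI. With Siglecf the only marker called, whether eosinophils differed was not tested. None of the 15 NF-κB regulators was called between the genotypes after HI.

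The difference between the HI responses, KO minus WT, was called for 0 of the 7 members and for 0% of all genes by edgeR, which had 768 genes at an unadjusted p under 0.05. DESeq2 called 23 genes and limma-voom 0, and no member was called in any alternative. Ccl12 had a difference of responses of 1.41 ± 0.52 log2 units (edgeR adjusted p = 0.932) and Ccl11 one of -2.51 ± 1.09 (edgeR adjusted p = 0.932). That Ccl12 was called after HI in KO and not in WT therefore does not show that the responses differed.

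Scaled by transcript length, the order of the 7 genes could be compared within a group. In KO HI libraries Ccl3 had 304 ± 112 CPM per kb, Ccl2 225 ± 113, Ccl4 206 ± 88.6 and Ccl12 186 ± 82.1 (SD, n = 4), and the ranges of these 4 overlapped. Ccl7 followed at 63.5 ± 50.2 CPM per kb, then Ccl11 at 10.9 ± 8.21 and Ccl5 at 9.01 ± 1.66, whose ranges overlapped and lay below that of Ccl7. In KO sham libraries the levels were 45.3 ± 40.5 CPM per kb for Ccl3, 43.6 ± 7.29 for Ccl2, 26.8 ± 6.06 for Ccl12, 22.7 ± 6.88 for Ccl7, 21 ± 13.1 for Ccl4, 0.70 ± 0.44 for Ccl5 and 0.50 ± 0.27 for Ccl11 (SD, n = 4). Ccl12 lay below Ccl2 and Ccl5 below Ccl4 in these libraries without overlap, and the other neighbours in the order overlapped.

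In WT HI libraries Ccl2 led with 140 ± 26.5 CPM per kb, beside Ccl3 at 135 ± 84.3, Ccl4 at 126 ± 79.4, Ccl11 at 84.4 ± 29.8 and Ccl12 at 59.8 ± 19.0 (SD, n = 4), with overlap between neighbours. Ccl7 at 41.9 ± 4.76 CPM per kb overlapped with Ccl12, and Ccl5 was lowest at 5.04 ± 0.29. In WT sham libraries the levels were 45.0 ± 12.9 CPM per kb for Ccl2, 33.0 ± 9.998 for Ccl7, 26.0 ± 9.05 for Ccl3, 22.9 ± 5.70 for Ccl12, 17.8 ± 4.22 for Ccl4, 0.69 ± 0.41 for Ccl11 and 0.25 ± 0.06 for Ccl5 (SD, n = 3), and of the neighbours in this order Ccl4 and Ccl11 alone did not overlap. In both genotypes Ccl11 and Ccl5 were the lowest after sham.

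The summed level of the 7 genes per kb was 427 to 1304 in KO HI and 113 to 237 in KO sham libraries. It was 411 to 865 in WT HI and 101 to 178 in WT sham libraries. Ccl11 made up 0.99% ± 0.71 of this sum in KO HI and 15.1% ± 4.97 in WT HI libraries (SD, n = 4 each). Ccl12 made up 18.2% ± 3.30 in KO HI and 10.2% ± 0.85 in WT HI libraries, again without overlap. After sham the Ccl12 share was 17.7% ± 5.33 in KO and 15.9% ± 1.61 in WT libraries (SD, n = 4 and 3). It was thus lower after HI in WT and much the same in KO. The Ccl11 share after sham was 0.33% in KO and 0.55% in WT libraries. The ratio of Ccl11 to Ccl2 per kb was 0.0117 to 0.0838 in KO HI and 0.412 to 0.853 in WT HI libraries. That of Ccl12 to Ccl2 was 0.575 to 1.07 in KO HI and 0.329 to 0.482 in WT HI libraries. The makeup of the sum differed between genotypes after HI most in its Ccl11 part, and that statement rests on the levels given above and not on a further test.

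**Figure D5:**
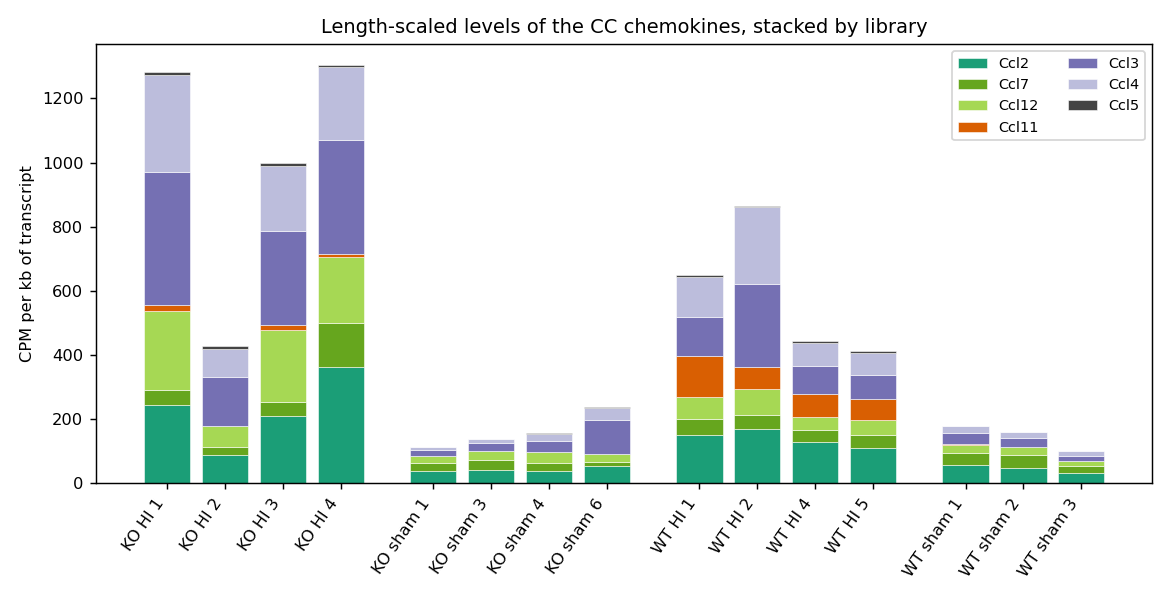
CPM per kb of transcript of the 7 CC chemokines, stacked for each of the 15 libraries. The Ccl11 segment averages 15.1% of the stack in WT HI libraries and 0.99% in KO HI libraries, and the stacks of both sham groups reach at most 237 CPM per kb.

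Across the 15 libraries the members varied together to different degrees. Ccl3 and Ccl4 had a Pearson r of 0.974 and a Spearman rho of 0.961 in log2 CPM, the highest of the 21 pairs, and Ccl7 and Ccl11 had the lowest r, 0.52. These values describe 15 libraries of 4 groups that share the HI and sham contrast and the marker shifts above. Among 13962 genes with a mean of at least 1 CPM, those most like Ccl3 were Ccl9 (r 0.989, rho 0.954), Ccl6 (r 0.986, rho 0.964) and Ctsb (r 0.985, rho 0.950), a lysosomal protease gene. Ccl4 was most like Cstb (r 0.986, rho 0.975), Plin2 (r 0.983, rho 0.946) and Amdhd2 (r 0.982, rho 0.989). Closest to Ccl2 were Ms4a6d (r 0.976, rho 0.921), Trmt6 (r 0.975, rho 0.961) and Ftsj3 (r 0.973, rho 0.961), and closest to Ccl12 were Ms4a6c (r 0.974, rho 0.968), Ccdc86 (r 0.972, rho 0.950) and Cndp2 (r 0.968, rho 0.918).

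The genes most like Ccl11 were Il18rap (r 0.976, rho 0.925), a subunit of the interleukin-18 receptor, and P2ry2 (r 0.975, rho 0.896), a nucleotide receptor. Il11 (r 0.975, rho 0.871), a cytokine of the interleukin-6 family, came next. Ccl5 was most like Cd5l (r 0.964, rho 0.921), Sec61b (r 0.964, rho 0.893) and Zc3h12d (r 0.963, rho 0.914). Ccl7 had the lowest values of likeness, with Cd36 (r 0.906, rho 0.896), Clec4n (r 0.898, rho 0.893) and Mak16 (r 0.882, rho 0.839).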

How the data were processed

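The authors deposited 1 table of expected counts per gene, without normalization. The header names no unit; 3.12% to 3.92% of values in a library were fractional, and RSEM is among the programs named. The submitters' processing notes list the build mm39 with DESeq2 1.4.5, RSEM 1.3.1, Bowtie, Bowtie2 2.4.4 and HISAT2 2.1.0, and their roles are not given in the sources used here. Of 65535 lines, 17892 had values in all 15 columns and 47643 were blank. Symbols were matched for 17862 IDs through RefSeq (GRCm38.p6), an older build than that of the counts, so coordinates are given only for sequences taken from it.

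Expected counts were rounded and fitted with edgeR 4.0.16 (TMM, filterByExpr, glmQLFit, glmQLFTest) in R 4.3.3 over all 15 libraries. The biological coefficient of variation was 38.6%. The script was tested on simulated data. The lowest chi-square per degree of freedom between replicates was 11.3, so all 15 libraries were counted as separate samples. CPM uses TMM library sizes, and CPM per kb the length of the GENCODE M21 coding transcript. Alternatives were DESeq2 1.42.0, its size factors, limma-voom (limma 3.58.1), no filter, 2 groups alone, a replicate block, each library left out, and 5 libraries left out. The last kept KO HI 1 and 4, KO sham 4 and 6, WT sham 1 and 3 and all WT HI libraries.

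The members, the gene lists, the alternatives and the rule for named genes (all members, up to 4 genes per list with the smallest p plus Ccr1, Ccr2 and Ccr3, and the 3 most alike genes per member) were chosen with earlier results of these data known. The values of 1 further CC receptor that the rule names are not reported here.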

Additional observations from a re-analysis of the deposited data

Results flagged for a closer look

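In groups of 4, a library was singled out where its gap to the nearest other library exceeded Dixon's 95% limit for the group's range, which chance does in about 1 of 20 groups. The rule was applied to each of the 7 members in KO HI, KO sham and WT HI, so a flag by chance is likely among them. Ccl11 in WT HI 1 had 139.5 CPM, against 72.6 to 77.1 CPM in the other 3 WT HI libraries, a gap of 0.932 of the range. Ccl3 in KO sham 6 had 80.7 CPM, against 14.8 to 25.7 CPM in the other 3 KO sham libraries, a gap of 0.834 of the range. Without WT HI 1, the Ccl11 log2 fold change was 6.64 for HI over sham in WT and -2.67 for KO over WT after HI. Without KO sham 6, the Ccl3 log2 fold change was 3.59 for HI over sham in KO and -0.04 for KO over WT in sham.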

How the results depend on the processing

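The number of members called after HI in WT was 4; it was 6 with DESeq2 and in the fit of the 2 WT groups alone, 5 without the 5 libraries with high neuron markers, 4 with limma-voom and 1 with the replicate block, and with 1 library left out 2 to 5. In KO it was 6; it was 7 with DESeq2 and without the 5 libraries, 5 with limma-voom, 2 with the replicate block and 0 in the fit of the 2 KO groups alone, and with 1 library left out 5 to 7. Between KO and WT after HI it was 2; it was 4 without the 5 libraries, 3 with DESeq2, with limma-voom and in the fit of the 2 HI groups alone, and 0 with the replicate block, and with 1 library left out 1 to 3. Between the sham groups, and for the difference of responses, 0 members were called in every fit. Calls over all genes moved with these settings too. In WT they were 271 in the main fit, 765 with DESeq2, 2443 in the 2 groups alone and 16 with the replicate block. In KO they were 1041, 1912, 16 and 73 in the same order. Between KO and WT after HI they were 1844 in the main fit, 3383 with DESeq2, 3440 without the 5 libraries and 21 with the block. These fits tested 14253 to 16127 genes. Deviations of same-numbered libraries correlated at -0.784 and -0.613 in the pairs with KO sham 1, and at 0.043 to 0.793 in the other pairs. No label says that the numbers pair samples, so the replicate block was run as an alternative only.

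Signs changed only for differences without a call. Between KO and WT sham, Ccl4 was -0.227 with the replicate block and -0.224 to 0.481 with 1 library left out, lowest without KO sham 6. With 1 library left out, Ccl3 ran from -0.04 without KO sham 6 to 1.052, and Ccl11 from -0.833 to 0.025 without WT sham 3. Ccl2 ran from -0.258 to 0.145, above 0 without KO sham 1, KO sham 4 or WT sham 1, and was 0.088 without the 5 libraries. After HI, Ccl7 in KO against WT ran from -0.127 without KO HI 4 to 0.862. The causes were not tested. DESeq2 size factors and the fit without a filter changed no count of members called. Counts of 1 to 21 limit Ccl5 and Ccl11 after sham.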
